A study of Danio rerio with 4 samples.

Results

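Sphingosine 1-phosphate (S1P) is a signalling lipid that cells make by phosphorylating sphingosine, release through a transporter and sense with G protein-coupled receptors at the surface of other cells. In the zebrafish embryo this pathway is known for heart fusion, in which left and right fields of cardiac precursors move to the midline and join into a single tube. Zebrafish mutants in the receptor gene s1pr2 (miles apart) or the transporter gene spns2 form separate hearts on either side, a defect called cardia bifida, and loss of the G protein subunit Gα13, which acts downstream of S1pr2, gives the same defect. Earlier work in zebrafish placed the requirement for s1pr2 and Gα13 outside the cardiac precursors, with the endoderm beneath them as a main site for Gα13, and that for spns2 in the extraembryonic yolk syncytial layer.

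The genes described here are s1pr1, s1pr2, spns2, the sphingosine kinase genes sphk1 and sphk2, and the Gα13 genes gna13a and gna13b. They were chosen by name for their known part in the pathway, not by a measured value, though earlier results of these data were known. All 7 were matched among the 25873 Ensembl gene IDs measured. S1PR1, S1PR2, SPHK1, sphk2 and spns2 were each held by 1 ID under that spelling. For gna13a and gna13b, 2 IDs shared the name GNA13, and the names do not tell which copy is which, so they are given by ID.

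RNA was sequenced from cells sorted out of Tg(nkx2.5:ZsYellow) zebrafish embryos of a laboratory strain, at 14 to 16 somites. In this transgene, regulatory sequence of nkx2.5, a homeobox gene of the heart and pharyngeal mesoderm, drives a yellow fluorescent protein. The ZsYellow-positive group (2 libraries) was labelled as cardiopharyngeal progenitors with cardiomyocytes, and the ZsYellow-negative group (2 libraries) was the remaining cells of the same embryos, so both groups carry the transgene, and no treatment is listed for either. The number of embryos behind a library is not given in the sources used here, and nothing states that replicates came from separate clutches, so p-values measure the spread between these libraries, which may be technical. Which positive and negative libraries came from the same sort is not stated either, so the main test treated the libraries as unpaired and ignores any such link.

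Library totals ran from 31996733 to 40133331 counts, and log2 CPM correlated over genes with r of 0.985 between the positive and 0.990 between the negative replicates. NKX2-5 was 81.5-fold higher in positive cells (edgeR quasi-likelihood test, adjusted p = 6.43e-06). The 4 matched cardiomyocyte markers were all called higher, with a summed level of 5526 and 6063 TPM in the positive libraries, against 1397 and 1067 TPM in the negative ones. Most of the negative sum was actc1a, at 1339 and 1026 TPM, while cmlc1, MYL7 and tnnc1a had at most 32.9 TPM each there. Of the matched somite markers 5 of 6, and of the erythroid markers 5 of 5, were called lower. The negative group is a mixture of the other tissues of the embryo, and a difference between sorted bulk fractions cannot tell fewer expressing cells from less RNA per cell.

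Among the 7 genes, spns2 and sphk2 were higher in positive cells, S1PR1, S1PR2 and both GNA13 IDs were not called, and SPHK1 was barely detected. The edgeR test therefore called 2 of the 6 that passed the low-count filter, each of them higher, at a Benjamini-Hochberg adjusted p under 0.05. Over all 19084 genes tested 17.1% were called, 9.02% higher and 8.07% lower. The 6 had a median log2 fold change (positive over negative) of 0.53, against -0.01 over all genes tested. In 4 of the 6 the CPM of each positive library exceeded that of each negative one, but groups failed to overlap in either direction for 58.3% of all genes tested, so that count stands near the background.

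**Figure D1:**
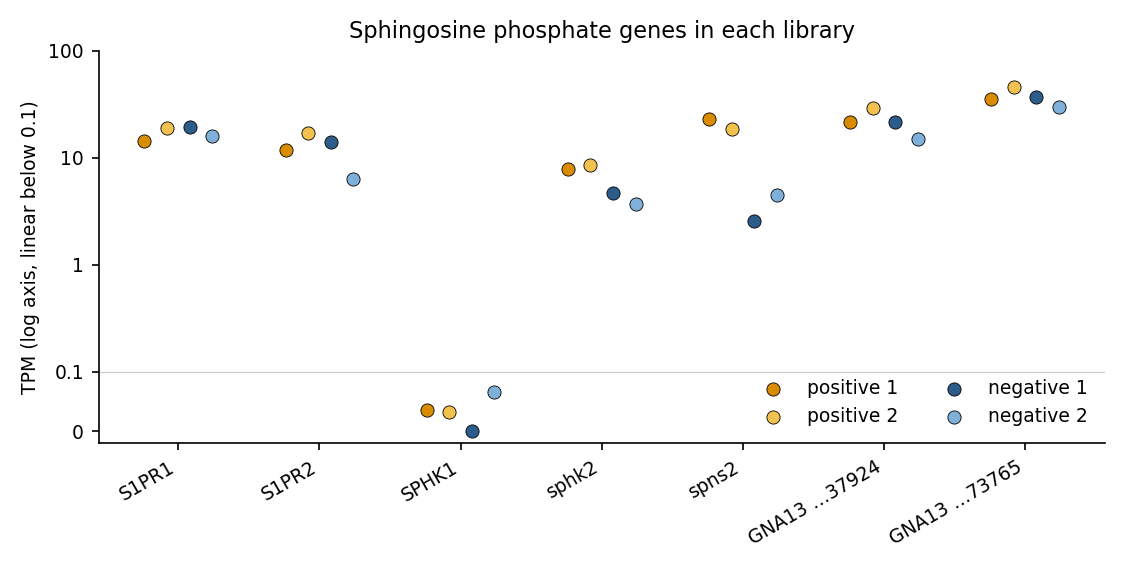
Level of each gene in each library in TPM (transcript abundance scaled to a fixed total, a level per transcript length), on an axis that is logarithmic above 0.1 and linear below it; each point is 1 library, and the GNA13 IDs are marked by their last digits. The positive points of spns2, at 23.2 and 18.7 TPM, stand apart from the negative points at 2.59 and 4.49 TPM, while SPHK1 lies under 0.1 TPM in every library.

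**Figure D2:**
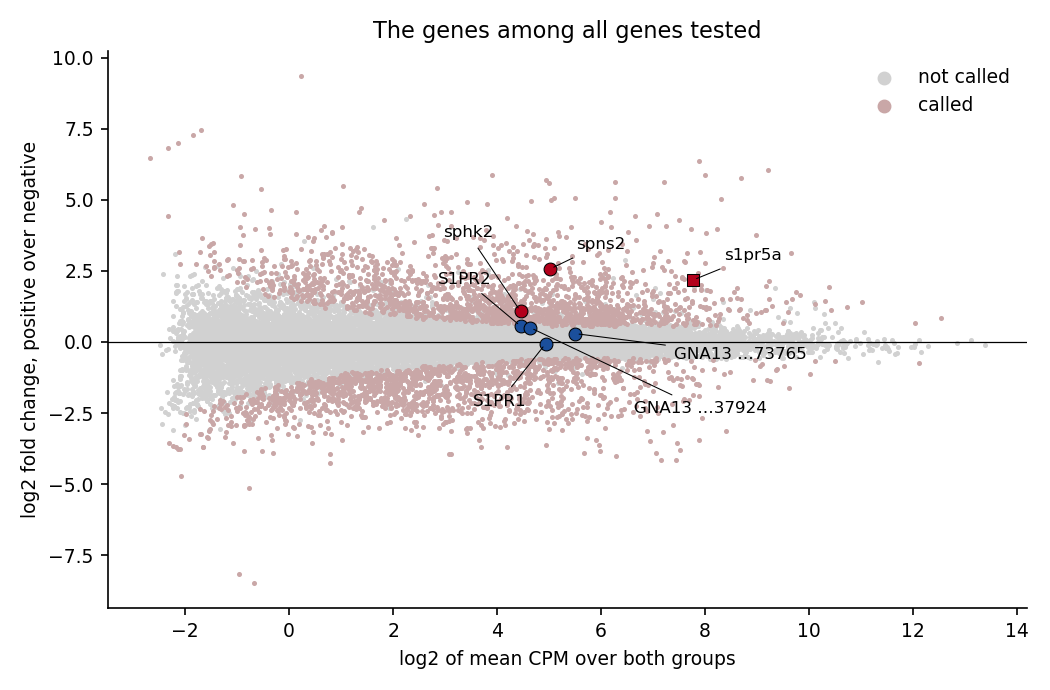
Log2 fold change of positive over negative against log2 mean CPM for the 19084 genes tested, with called genes in pale red. Larger red points mark the called spns2, sphk2 and, as a square, the receptor gene s1pr5a, and blue points mark S1PR1, S1PR2 and the GNA13 IDs, which lie within the band of genes not called.

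The kinases make the ligand. SPHK1 (ENSDARG00000100290), the sphingosine kinase found mainly in the cytoplasm and at the plasma membrane of mammalian cells, gave 1 and 1 counts across the positive and 0 and 2 across the negative libraries. Those counts are at or under 3 per library, a floor that corresponds to 0.0763 to 0.0963 CPM, so no fold change is given. SPHK1 was not measured above this floor in either fraction, though counts of 1 or 2 do not exclude a level somewhat above it. The other kinase gene, sphk2 (ENSDARG00000069893), gave 935 and 1157 counts across the positive and 540 and 446 across the negative libraries. Its level was 7.90 and 8.65 TPM in positive cells and 4.73 and 3.66 TPM in negative cells. For sphk2 the fractions did not overlap. Its replicates differed 1.02-fold in CPM in positive and 1.14-fold in negative cells. The medians were 1.15-fold and 1.14-fold over the 9173 tested genes with a mean of at least 10 CPM.

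In CPM (counts scaled to a fixed library size), sphk2 stood at 29.7 ± 0.409 in positive and 14.1 ± 1.27 in negative cells (SD, n = 2 each). This is a 2.11-fold difference, or 1.08 ± 0.187 (SE) on the log2 scale (edgeR adjusted p = 0.00433). Without negative replicate 2 the difference was 1.00 and no longer called (edgeR adjusted p = 0.0583). Sphingosine kinase transcripts in both fractions were thus almost entirely those of sphk2, since SPHK1 stayed at or under 0.0669 TPM in each library.

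Export showed the largest difference among these genes. spns2 (ENSDARG00000061017), the transporter that carries S1P out of the cell, gave 1625 and 2320 counts across the positive and 333 and 321 across the negative libraries. Its level was 23.2 and 18.7 TPM in positive cells and 2.59 and 4.49 TPM in negative cells. The groups did not overlap, and the lowest positive library of spns2 stood above the highest negative one by either measure. In CPM the means were 55.6 ± 4.85 and 9.37 ± 0.175 (SD, n = 2 each), a 5.93-fold difference. On the log2 scale the change of spns2 was 2.57 ± 0.184 (SE; edgeR adjusted p = 4.93e-05), and it stayed called under each alternative run, between 2.30 and 2.68.

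The counts and the TPM of spns2 did not move together between replicates. The count per unit of TPM, scaled to the library, reflects the transcript length that the authors' quantification gave the gene. For spns2 it was 1.30 and 1.97 in the positive libraries, against 2.31 and 1.22 in the negative ones, a 1.89-fold range. Only 0.455% of the 12971 genes tested with at least 400 counts in total had a range that wide, and the median range was 1.01-fold. The other 5 tested genes ranged 1.01-fold to 1.07-fold. Replicates of spns2 that agreed in CPM, such as the negative pair at 9.24 and 9.49, therefore differed in TPM, and the split of its reads over transcripts was not tested.

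Of the related transporter genes, 1 was expressed enough to be tested. SPNS1 (ENSDARG00000011925), which belongs to the same family and acts on lysosomes, averaged 49.9 ± 10.2 CPM in the positive and 45.5 ± 0.239 CPM in the negative fraction (SD, n = 2 each), and its change of 0.13 ± 0.190 (log2, SE) was not called (edgeR adjusted p = 0.695). SPNS3, which neighbours spns2 in the RefSeq annotation of the assembly GRCz12tu, gave 19 and 7 counts across the positive and 7 and 9 across the negative libraries, and did not pass the low-count filter. Neither did MFSD2B, known as an S1P exporter of mammalian blood cells, with 5 and 1 against 1 and 5 counts. The ratio of spns2 to SPNS1 in TPM was 1.11 and 0.617 in the positive libraries, against 0.104 and 0.206 in the negative ones. This ratio carries the uneven count per unit of TPM of spns2 described above. With 2 against 2 libraries the exact two-sided permutation test cannot go below p = 0.333, the value it gave here.

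Of the members that sense the ligand, S1PR1 (ENSDARG00000042690), a receptor known for vascular stability in zebrafish and mouse, was at nearly the same level in both fractions. It gave 852 and 1282 counts across the positive and 1166 and 1019 across the negative libraries. Its level was 14.5 and 18.8 TPM against 19.3 and 15.9 TPM, and the fractions overlapped. The change of S1PR1 was -0.06 ± 0.181 on the log2 scale (SE; edgeR adjusted p = 0.867), with a 95% interval from -0.47 to 0.35, so a change of more than 2-fold in either direction lies outside the interval.

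S1PR2 (ENSDARG00000036548), the miles apart receptor, gave 707 and 1165 counts across the positive and 850 and 410 across the negative libraries. Its level was 11.9 and 17.0 TPM in positive cells and 13.9 and 6.35 TPM in negative cells. Negative replicate 1 lay between the positive libraries and negative replicate 2 below all the others, so the fractions overlapped. In CPM the means of S1PR2 were 26.2 ± 4.91 and 17.9 ± 8.11 (SD, n = 2 each). The change was 0.55 ± 0.303 on the log2 scale (SE; edgeR adjusted p = 0.267), with a 95% interval from -0.14 to 1.24.

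The replicates of S1PR2 stood far apart in negative cells. Its negative replicates differed 1.95-fold in CPM, and 0.589% of the 9173 tested genes with a mean of at least 10 CPM had negative replicates as far apart. The median gene differed 1.14-fold there. The log2 fold change of S1PR2 was 1.11 without negative replicate 1 and 0.16 without negative replicate 2. Without positive replicate 1 it was 0.75. Each of these fits left 1 library in a group, which was assumed to vary like the other group.

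The receptor genes as a family were then compared. In each library, S1PR1 and S1PR2 each had a lower TPM than s1pr5a (ENSDARG00000040526), another S1P receptor gene. Counts of s1pr5a were 9408 and 16192 across the positive and 2862 and 2654 across the negative libraries. The level of s1pr5a was 153.5 and 228.2 TPM in positive cells and 45.4 and 39.8 TPM in negative cells, with no overlap. This 4.52-fold difference, 2.18 ± 0.204 on the log2 scale (SE), was called (edgeR adjusted p = 0.000183). It was the one receptor gene called of the 5 tested, or 20%, which stands near the 17.1% called over all genes tested.

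As a share of the summed TPM of the 6 matched receptor genes, s1pr5a made up 85.1% and 86.0% in the positive libraries, against 57.2% and 63.5% in the negative ones. S1PR1 made up 8.03% and 7.10% of it in positive cells and 24.3% and 25.4% in negative cells. S1PR2 made up 6.61% and 6.40% in positive cells and 17.6% and 10.1% in negative cells. The shares of S1PR1 and S1PR2 were thus lower in both positive libraries although their own levels were not called different, because the sum was larger. The exact two-sided permutation test gave its smallest possible p, 0.333, for each of these shares. The summed level was 180.4 and 265.2 TPM in positive cells and 79.4 and 62.7 TPM in negative cells.

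**Figure D3:**
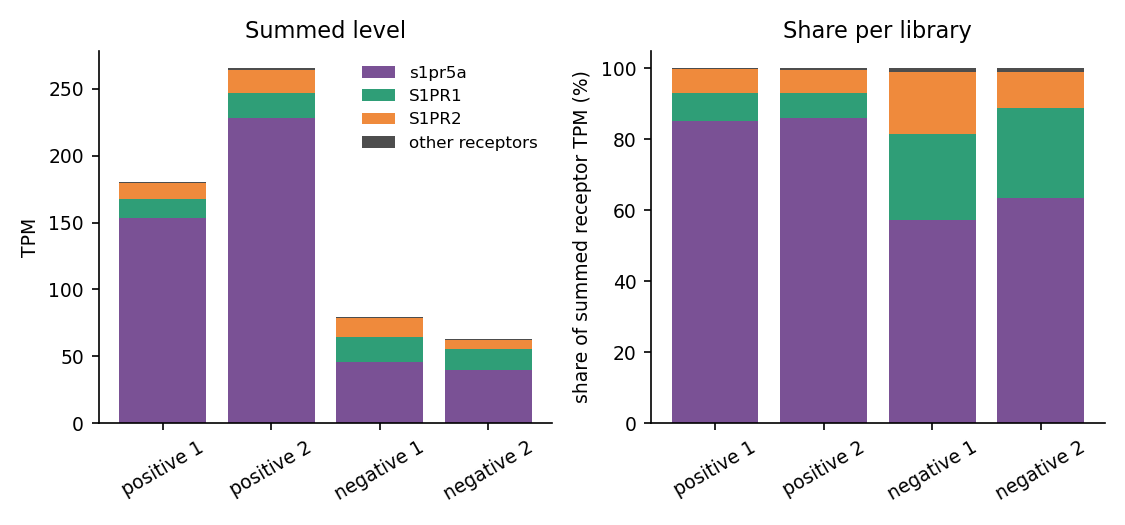
Stacked bars of S1P receptor transcripts in each library, as TPM on the left and as percent of their sum on the right. The s1pr5a segment is the largest in each library and makes up 85.1% and 86.0% of the sum in the positive libraries.

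The other receptor genes were close to the detection limit. s1pr3a had 5 to 15 counts and the ID named S1PR5 (ENSDARG00000052192) 10 to 24 counts in a library, and neither was called (edgeR adjusted p = 0.891 and 0.581). S1PR4, a receptor of blood cells in mammals, gave 1 and 5 counts across the positive libraries and 0 in each negative library, where a count of 0 allows up to 0.0833 and 0.0887 CPM. The entry s1pr3b was not matched and is not analysed here.

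Both GNA13 IDs, the G protein subunits downstream of S1pr2, were expressed in both fractions. ENSDARG00000073765 had 35.7 and 45.4 TPM in positive cells and 37.4 and 29.6 TPM in negative cells. ENSDARG00000037924 had 21.4 and 29.3 TPM in positive cells and 21.4 and 14.8 TPM in negative cells. In TPM the fractions overlapped for both IDs, and in CPM each positive library stood above each negative one for both. The copy with more transcripts was the same in every library, at 1.55 to 1.67 times the other in positive cells and 1.74 to 2.00 times in negative cells.

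The log2 fold change was 0.30 for GNA13 ENSDARG00000073765 (SE 0.174, edgeR adjusted p = 0.301, 95% interval -0.10 to 0.69) and 0.51 for GNA13 ENSDARG00000037924 (SE 0.209, edgeR adjusted p = 0.139, 95% interval 0.03 to 0.98). The latter was 0.69 without positive replicate 1, a fit with 1 positive library left that cannot measure the spread between positive libraries. Reads that similar copies share can be divided between them, and how similar these IDs are in sequence was not examined. The counts of both IDs were therefore also added into 1 row, a choice made after seeing the data. The summed row gave 2242 and 3389 counts across the positive and 2374 and 1909 across the negative libraries, and changed by 0.37 ± 0.18 on the log2 scale (SE; edgeR adjusted p = 0.208), which was not called.

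By mean TPM in positive cells the order was GNA13 ENSDARG00000073765 at 40.5 ± 6.83, GNA13 ENSDARG00000037924 at 25.3 ± 5.55, spns2 at 20.9 ± 3.13, S1PR1 at 16.7 ± 3.07, S1PR2 at 14.4 ± 3.57, sphk2 at 8.27 ± 0.530 and SPHK1 at 0.0344 ± 0.00318 (SD, n = 2). From the lower GNA13 ID to S1PR2, each gene overlapped its neighbour in this order, while the higher GNA13 ID, sphk2 and SPHK1 did not overlap theirs. In negative cells spns2, at 3.54 ± 1.34 TPM, fell behind sphk2 at 4.20 ± 0.754 TPM, and these neighbours overlapped. The remaining genes kept their order there, with 33.5 ± 5.48 and 18.1 ± 4.68 TPM for the GNA13 IDs, 17.6 ± 2.39 TPM for S1PR1, 10.1 ± 5.37 TPM for S1PR2 and 0.0334 ± 0.0473 TPM for SPHK1 (SD, n = 2), of which the lower GNA13 ID and S1PR1 overlapped.

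The rest of the sphingolipid pathway was examined next, from the precursors of sphingosine to the breakdown of S1P. Of 38 matched genes 31 were tested, with 8 called higher, 0 lower and 23 not called, and a median log2 fold change of 0.23, against -0.01 over all genes tested. This is 25.8% of the list called, against 17.1% of all genes tested, of which 9.02% were called higher. These 8 include spns2 and sphk2. At the start of sphingolipid synthesis, the SPTLC2 ID ENSDARG00000018976, a subunit of serine palmitoyltransferase, averaged 244.9 ± 23.2 CPM in the positive and 74.7 ± 4.10 CPM in the negative fraction (SD, n = 2 each). Its change was 1.71 ± 0.176 on the log2 scale (SE; edgeR adjusted p = 0.000286). The other SPTLC2 ID, ENSDARG00000074287, changed by 0.76 (edgeR adjusted p = 0.0262). Its partner subunit gene SPTLC1 was not called, at 0.19 (edgeR adjusted p = 0.562), and neither was the dihydroceramide desaturase gene degs1, at 0.16 (edgeR adjusted p = 0.597).

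The sphingomyelin synthase genes sgms1b and SGMS1 were higher in positive cells, by log2 fold changes of 1.34 and 0.69 (edgeR adjusted p = 0.001 and 0.0388). So were 2 of the phosphatase genes that can remove the phosphate of S1P, PLPP3 outside the cell at 0.85 and SGPP1 inside it at 0.84 (edgeR adjusted p = 0.0281 and 0.0392). The PLPP2 IDs of the same group were not called, with log2 fold changes of 0.23 and -0.93 (edgeR adjusted p = 0.477 and 0.372), and SGPP2 was not tested. SGPL1, the lyase that breaks S1P down irreversibly, was not called either, at 0.67 (edgeR adjusted p = 0.064). The count of 8 became 4 without negative replicate 1 and 3 without negative replicate 2, with PLPP3, SGPP1, SGMS1 and SPTLC2 ENSDARG00000074287 lost in both.

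A gene of Gα12, the closest relative of Gα13, was also measured, while the entry gna12b was not matched and is not analysed here. gna12a (ENSDARG00000025826) gave 2354 and 2776 counts across the positive and 588 and 465 across the negative libraries. This was a 4.86-fold difference with no overlap between the fractions, 2.28 ± 0.183 on the log2 scale (SE; edgeR adjusted p = 8.11e-05). The level of gna12a in positive cells, 20.6 and 21.0 TPM stood beside 21.4 and 29.3 TPM for GNA13 ENSDARG00000037924, while in negative cells gna12a was at 5.02 and 3.75 TPM. gna12a stayed called under all 13 alternatives.

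Heart fusion also depends on genes outside the S1P pathway. A list of candidates for such genes was examined, and whether fusion depends on each of them was not tested. Of the 16 listed genes matched and tested, 7 were called higher and 1 lower, and 8 were not called. The median log2 fold change of the list was 0.53. Calls over all genes tested were 9.02% higher and 8.07% lower. Fibronectin, the matrix protein that cardiac precursors migrate on, is encoded by 2 IDs named FN1, which went in opposite directions. FN1 ENSDARG00000019815 had 123.2 and 153.7 TPM in positive cells and 31.3 and 31.2 TPM in negative cells, a change of 2.16 ± 0.191 on the log2 scale (SE; edgeR adjusted p = 0.000128). FN1 ENSDARG00000006526 had 13.02 and 15.4 TPM in positive cells and 66.5 and 51.9 TPM in negative cells, a change of -2.01 ± 0.179 on the log2 scale (SE; edgeR adjusted p = 0.000135). The names do not tell which of them is fn1a, the copy known as natter.

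The Nodal co-receptor gene tdgf1 and the transcription factor genes GATA5 and HAND2 had log2 fold changes of 2.84, 2.51 and 1.77 (edgeR adjusted p = 3.48e-05, 5.06e-05 and 0.000414). The hyaluronan synthase gene HAS2, the platelet-derived growth factor receptor gene PDGFRA and the apelin receptor gene aplnra followed at 2.24, 1.17 and 0.63 (edgeR adjusted p = 0.000725, 0.00167 and 0.036). The call of aplnra was lost without positive replicate 1 (edgeR adjusted p = 0.057), without negative replicate 1 (0.214), without negative replicate 2 (0.121), with upper-quartile factors (0.073) and with the replicate block (0.0516). ITGA5, a fibronectin receptor subunit gene, and CEMIP2, a hyaluronidase gene, were not called, at 0.42 and 0.27 (edgeR adjusted p = 0.158 and 0.386). GATA5 and HAND2 are also regulators of the sorted tissue itself, and whether the list was called more often than other genes was not tested.

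**Figure D4:**
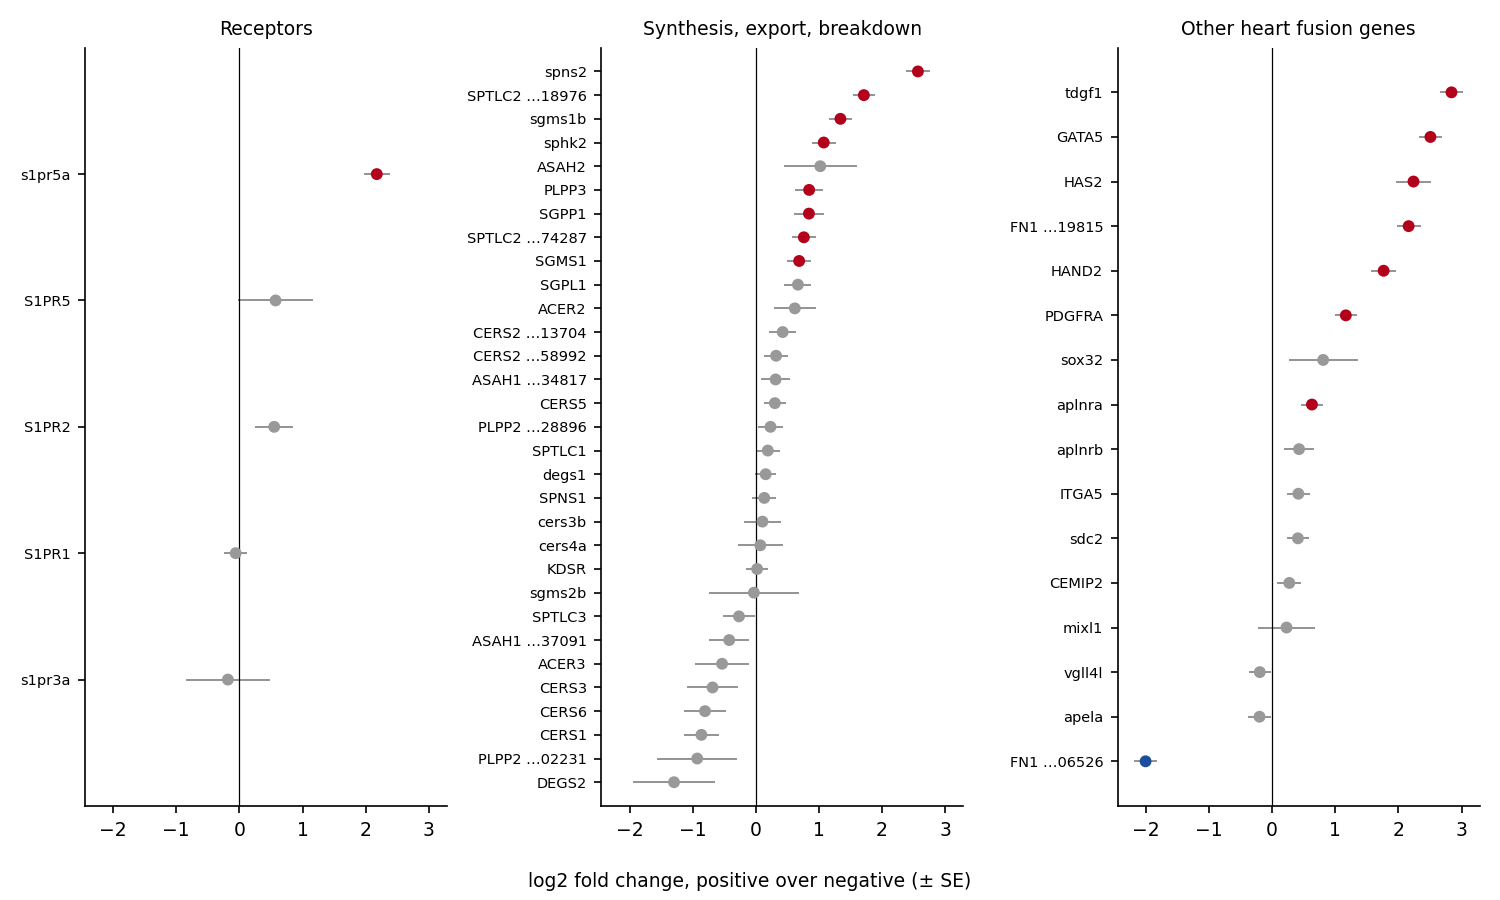
Log2 fold change of positive over negative with its SE for each tested gene of the S1P receptors, of the enzymes and transporters around S1P and of the other heart fusion genes. Red points were called higher, blue lower and grey not called at an edgeR adjusted p under 0.05; spns2 at 2.57 leads the enzymes and transporters, and the 2 FN1 IDs lie on opposite sides of 0.

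Markers of endothelial and myeloid cells were also compared between the fractions. All 8 matched endothelial markers were called higher in positive cells, with log2 fold changes from 0.93 to 2.73. Their summed level was 499.0 and 614.4 TPM against 218.3 and 174.5 TPM. The largest part was SOX7, at 254.6 and 319.1 TPM against 108.8 and 93.7 TPM. The positive replicates of ERG stood at 29.1 and 11.8 TPM, of sox18 at 22.5 and 7.80 TPM and of tek at 9.13 and 3.15 TPM. The other endothelial markers were higher in positive replicate 2 than in positive replicate 1. Of 5 matched myeloid markers 3 were tested and called higher, with a sum of 194.8 and 214.7 TPM against 103.6 and 95.9 TPM. Most of that sum was SPI1, at 173.7 and 190.3 TPM against 91.6 and 91.6 TPM, and ptprc and csf1ra had 12 counts or fewer in each library. None of these markers was at 0 in every library. The part of endothelial or myeloid cells in the higher spns2, sphk2 and s1pr5a was not tested.

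Transcripts of genes used as markers of endoderm and yolk, the tissues in which zebrafish work placed Gα13 and spns2, were counted in both fractions. The 5 matched endoderm markers summed to 39.2 and 30.3 TPM in positive and 31.6 and 32.1 TPM in negative cells, with FOXA2 called higher, foxa3 lower and 3 not called. FOXA2 stood at 17.1 and 15.9 TPM in positive and 10.6 and 8.14 TPM in negative cells. The levels of foxa3 were 8.03 and 8.79 TPM in positive and 14.3 and 16.4 TPM in negative cells. For both genes only the higher fraction was within or near the range of S1PR1. FOXA1 had 12.9 and 4.03 TPM in positive and 5.49 and 6.56 TPM in negative cells. SOX17 and sox32 had at most 1.33 TPM in any library. The 5 matched yolk syncytial layer markers summed to 8.08 and 8.45 TPM in positive and 7.10 and 5.55 TPM in negative cells. Most of that sum was SLC40A1, which was higher in positive cells, at a log2 fold change of 1.09. The remaining markers had at most 1.02 TPM in any library, and their log2 fold changes were all negative. HNF4A was called lower, at -1.77, while mxtx2, apobb.1 and MTTP were not called, at -1.54, -1.35 and -1.32. Whether endoderm or yolk cells were present in either fraction was not tested, and neither was their part in these values.

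The genes whose centred log2 CPM over the 4 libraries lay closest to those of spns2, among 8483 named genes with a mean of at least 10 CPM, were ANGPT1, which encodes a ligand of the endothelial receptor Tie2, and mtus1b. Their Euclidean distances to spns2 were 0.0964 and 0.104 log2 units, and their log2 fold changes were 2.65 and 2.44. Closest to sphk2 were a PDGFA ID (ENSDARG00000098578), a growth factor gene whose name is held by several IDs, and SLC1A4, an amino acid transporter gene, at 0.0678 and 0.0691 log2 units, with log2 fold changes of 1.02 and 1.02. With 4 libraries in 2 groups, such closeness describes little more than a similar fold change and small replicate spread.

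Neighbouring genes were matched on both sides for S1PR1 and S1PR2. DNMT1 and icam3 flank s1pr2 in the RefSeq annotation. DNMT1, the maintenance DNA methyltransferase gene, was not called, at a log2 change of -0.36 (edgeR adjusted p = 0.208). icam3 was higher in positive cells, at 30.1 CPM against 4.02 CPM, or 2.90 on the log2 scale (edgeR adjusted p = 7.88e-05). Beside S1PR1, DPH5 at -0.57 and ZBTB37 at 0.73 were not called (edgeR adjusted p = 0.0697 and 0.135).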

How the data were processed

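Per the labels' protocols, libraries were made from some 50 ng of RNA with poly(A)-primed reverse transcription and tagmentation, using a Clontech kit for small inputs, and sequenced as read pairs of 50 nt. Molecular identifiers are not mentioned there, so counts need not be independent molecules and floors cover counting error only. The submitters' processing notes name BWA 0.7.12-r1039, bedtools, Salmon 1.2.1 and the builds Zv9 and GRCz11 without saying which made the table, so no coordinates are given. The authors deposited, per the file headers, a whole-number count per gene and library, treated here as an estimated count because 20 entries had a count of 0 and a TPM above 0, and log2(TPM + 1) values, from which TPM was recovered.

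Counts were tested with edgeR 4.0.16 (quasi-likelihood, TMM, filterByExpr at 10 and 15 counts) in R 4.3.3 with limma 3.58.1 and DESeq2 1.42.0 for alternatives. SE is the log2 fold change divided by the root of F, and intervals are 95%, not adjusted for the number of genes. limma used genes of at least 0.5 TPM in 2 libraries. The edgeR step was also run on simulated counts with the same dispersion for every gene, which cannot test the calls made here. Names came from a table pairing IDs with symbols and from RefSeq synonyms (GRCz12tu). A pair of copies was matched jointly where 2 IDs held the base name, and a single ID where the other copy was named. Named were the members, the receptors, called list genes and up to 3 abundant uncalled ones per list. SPNS1, SPNS3, MFSD2B, PLPP2, SGPP2, SGPL1, the single markers and the neighbours were named after their values were seen. The members and lists were chosen with earlier results of these data known. A planned list of genes downstream of the receptors is not reported here.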

Additional observations from a re-analysis of the deposited data

How the results depend on the processing

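Alternatives were other scalings and filters, DESeq2, limma on TPM, blocks and leaving out each library; a lone library was assumed to vary like the other group. spns2 stayed called under all 13 and GNA13 ENSDARG00000073765 uncalled under all 13. S1PR1, not called in any, changed sign only without positive replicate 1, at 0.089, and ran from -0.19 to that value over the fits that leave out 1 library. S1PR2 and GNA13 ENSDARG00000037924 were called only without positive replicate 1, where the spread between positive libraries cannot be measured. Over the fits that leave out 1 library S1PR2 ran from 0.16 to 1.11 and GNA13 ENSDARG00000037924 from 0.34 to 0.69. sphk2 ran from 1.00 to 1.17 over these fits, with its call changed as given above. The S1P receptor genes called over these fits ran from 1 to 2, the synthesis, export and breakdown genes from 3 to 10 and all genes from 1623 to 4084. Limma on log2(TPM + 1) and on log2(TPM + 0.1) each called 5 of the synthesis, export and breakdown genes; the cause was not tested. Of the 16 other called list genes, 11 stayed called under every alternative and 5 were lost at least once. Upper-quartile factors moved the median of all genes to -0.11. The same replicate numbers are no stated pairing: deviations of same-numbered libraries correlated at -0.13, and the replicate block gave 3323 calls and the crossed block 4010, against 3262, with spns2 at 2.57 and sphk2 at 1.08 in the replicate block.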
